A study of Drosophila melanogaster with 19 samples.

Results

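A set of 10 maternal and germ plasm transcripts of Drosophila were followed across all arrays of a study on the zinc-finger transcription factor Tramtrack (ttk). They were bcd (FBgn0000166), osk (FBgn0003015), nos (FBgn0002962), exu (FBgn0000615), stau (FBgn0003520), swa (FBgn0003655), orb (FBgn0004882), aub (FBgn0000146), gcl (FBgn0005695) and Map205 (FBgn0002645), chosen by name and read from the row of each gene's FlyBase number, which gave 10 of the 12679 genes on the array. The study compared whole embryos and cells sorted for a btl enhancer reporter, with 19 arrays in 8 groups. In the mutant experiment, 2 arrays of embryos and 2 of cells carried ttk2D50 with btl-enh-RFPmoe, and their controls, 2 arrays of embryos and 3 of cells, carried btl-enh-RFPmoe alone. In the over-expression experiment, 3 arrays of embryos and 2 of cells carried btl-GAL4, UAS-ttk and btl-enh-RFPmoe, and their controls, 3 arrays of embryos and 2 of cells, carried btl-GAL4 and btl-enh-RFPmoe.

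All groups carried the red reporter, which the btl enhancer drives in trachea and ventral midline and, by the study's own description, in several other cell types. Eggs of the mutant experiment were collected for 7 hours and 40 minutes at 25 °C and aged for 5 hours and 20 minutes more, so that each pool spans a range of ages, and homozygous embryos were taken by the absence of a GFP balancer. The labels give 29 °C for the over-expression experiment, whereas the study's methods give the same temperature for both. For the controls of the sorted over-expression cells, the strain field of both samples names ttk2D50, against their titles, and they were grouped by title. The study describes its replicates as biological, without saying whether they came from separate crosses. It excluded some arrays for quality, all of them in the mutant experiment, so a p-value sets a difference against the spread between the arrays kept.

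Mothers load the egg with RNA, and part of it is tied to the anterior pole or to the germ plasm at the posterior pole. Most maternal RNA is cleared from the body of the embryo early in embryogenesis, while some persists in the pole cells, the precursors of the germ line. Of the transcripts followed, bcd, osk and nos encode determinants of the body axis and germ plasm, exu, stau, swa and orb encode proteins that act on localised RNAs, aub and gcl act in germ line and pole cells, and Map205 encodes a microtubule-associated protein.

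Several arrays stood apart before any comparison. In the mutant experiment the 2 arrays of labelled mutant embryos differed from each other by 1 or more on the log2 scale at 5.27% of genes, and the 2 arrays of control embryos at 32.9%. Among the transcripts followed, the second control embryo array was lower than the first by 3.81 for stau, 2.57 for Map205, 1.22 for aub and 1.06 for bcd. Replicate 2 of the labelled over-expression embryos differed by 1 or more from replicates 1 and 3 at 14.8% and 15.4% of genes, and replicates 1 and 3 from each other at 0.158%. Array medians lay between 7.59 and 7.69 in labelled mutant embryos and between 7.43 and 7.44 in their controls, but between 6.17 and 6.24 in labelled mutant cells and between 6.84 and 6.97 in theirs, so values relative to the array median are given where they change a direction.

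The ttk probe set read 11.44 and 11.19 in labelled mutant embryos, against 11.27 and 8.83 in their controls, and 12.06, 11.57 and 12.19 in labelled over-expression embryos, against 12.39, 12.39 and 12.38 in theirs. It was thus not lower in the first nor higher in the second, where each labelled over-expression array lay below all its controls. In sorted cells it changed by 0.15 (SE 0.10, adjusted p = 0.241, limma) in the labelled mutant. In labelled over-expression cells it changed by -0.69 (SE 0.13, adjusted p = 0.276, limma). On centred arrays these changes of the ttk probe set were 0.83 and -0.78. The place of its probes relative to the lesion and the transgene is not given in the sources used here, so it does not check the genotypes, and groups are named as labelled throughout.

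In whole embryos of the mutant experiment, 9 of the 10 transcripts were higher on both labelled mutant arrays than on both controls, and gcl was lower, where 39.5% and 16.7% of all genes separated in these directions. By the study's rule for candidates, a log2 change of at least 1 in either direction with an unadjusted p not over 0.05, 8 of 10 were higher and 0 lower, against a background of 8.44% of all genes higher and 1.39% lower. None of the 10 reached an adjusted p of 0.05 (limma, Benjamini-Hochberg), nor did any other gene, 0% of all tested; before adjustment 8 of the 10 and 13.4% of all genes were at 0.05 or below. Over the 10 transcripts the median change was 2.33 on the log2 scale, and over all genes 0.19. Of the 10, 6 are on gene lists that the study drew from genes changed in mutant embryos. Their share above the background here is therefore no independent evidence.

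**Figure D1:**
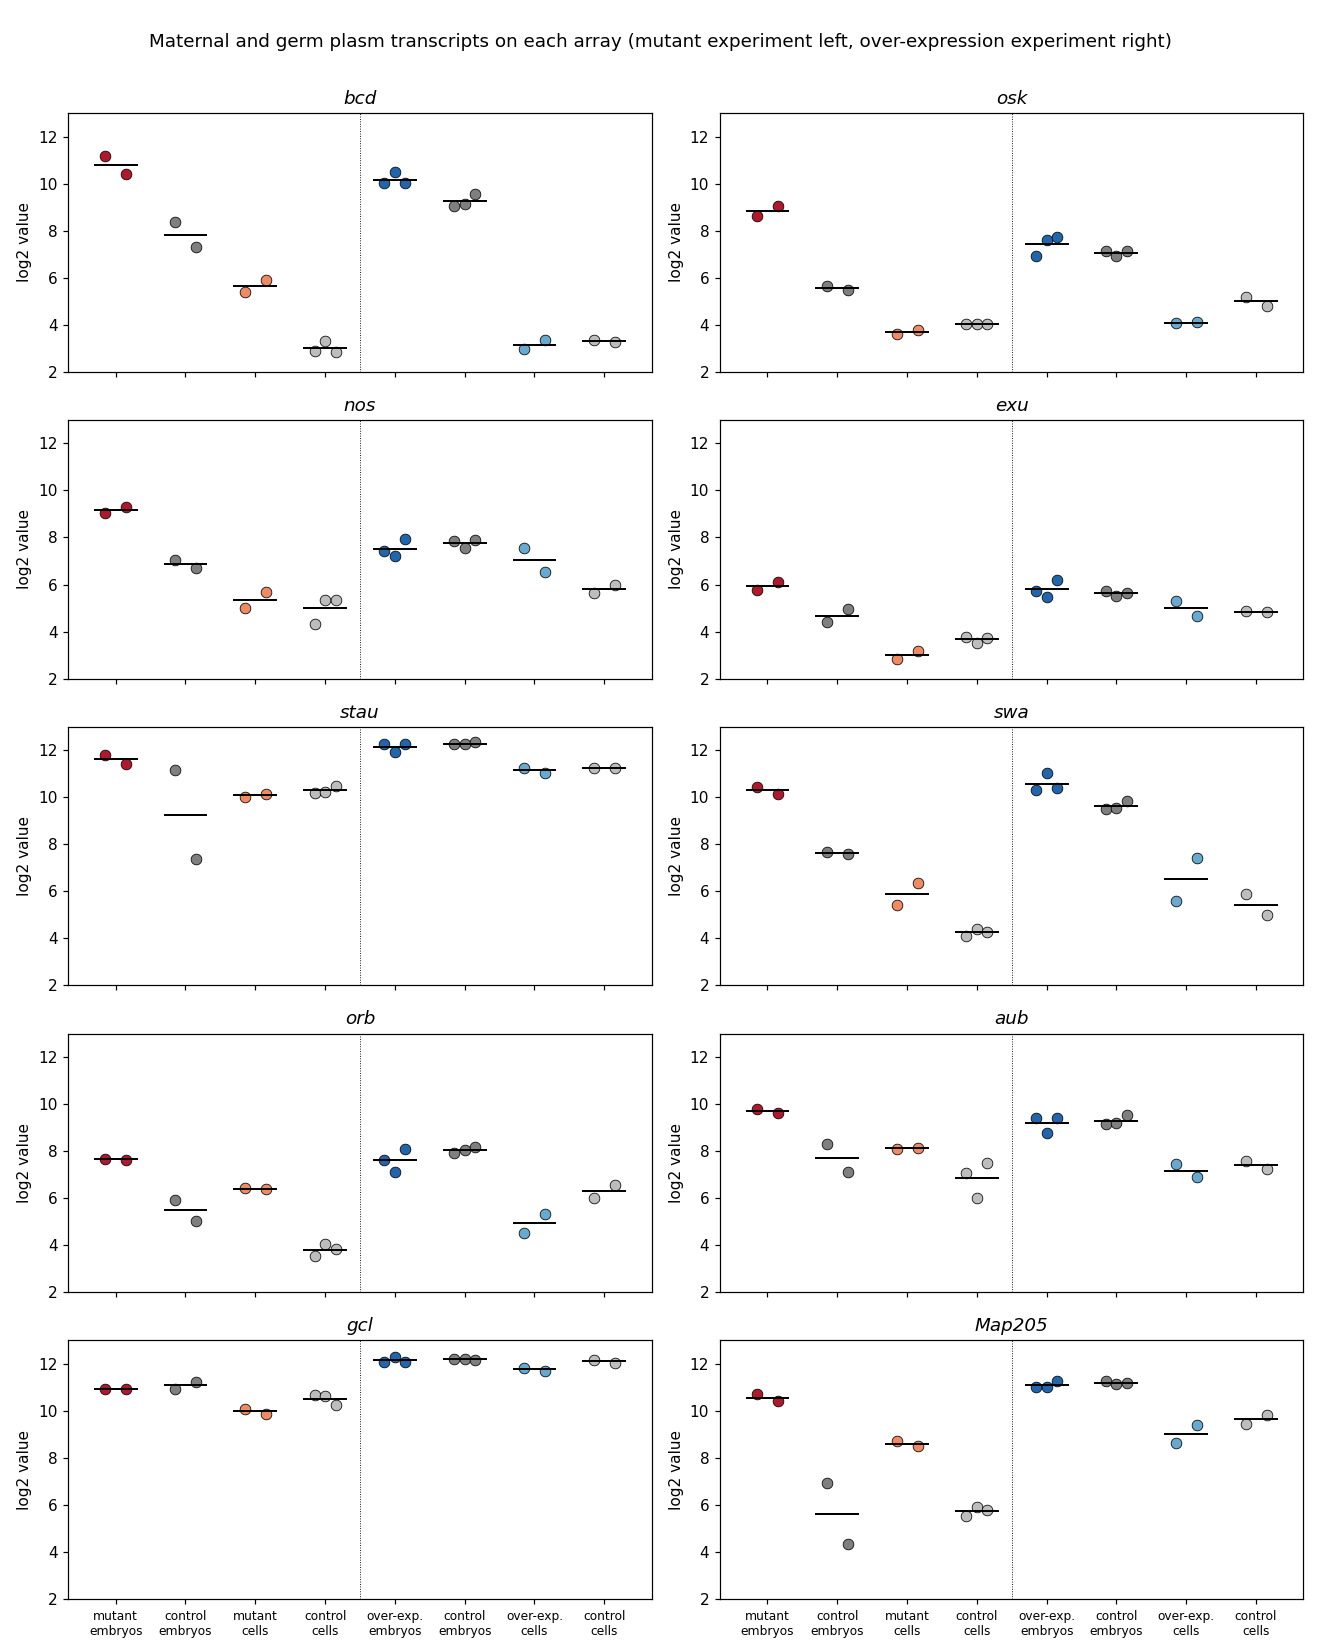
Deposited log2 value (y axis) of each transcript on each of the 19 arrays, by group (x axis); points are arrays, lines group means, and a dotted line divides the mutant experiment from the over-expression experiment. All but gcl lie higher on both labelled mutant embryo arrays than on both of their control arrays, and stau, aub and Map205 show the distance between those control arrays.

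The axis determinants all separated. bcd, whose RNA is held at the anterior pole and specifies the head, read 11.16 and 10.43 in labelled mutant embryos, against 8.36 and 7.29 in control embryos. The groups did not overlap, and bcd changed by 2.97 (SE 0.52, adjusted p = 0.339, limma). osk, whose product assembles the germ plasm, read 8.61 and 9.07 in labelled mutant embryos, against 5.66 and 5.49 in control embryos. Here both groups were tight, and the change was 3.26 (SE 0.29, adjusted p = 0.339, limma). nos, a translational repressor translated at the posterior pole, read 9.03 and 9.29 in labelled mutant embryos, against 7.05 and 6.69 in control embryos. Its change was 2.30 (SE 0.28, adjusted p = 0.339, limma), again without overlap.

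Of the factors that act on localised RNAs, swa, which is needed to hold bcd RNA at the anterior, read 10.45 and 10.16 in labelled mutant embryos, against 7.66 and 7.59 in control embryos. Replicates were close and swa changed by 2.68 (SE 0.25, adjusted p = 0.339, limma). orb, a regulator of osk translation in the oocyte, read 7.68 and 7.62 in labelled mutant embryos, against 5.93 and 5.03 in control embryos. The groups lay apart, with a change of 2.18 (SE 0.40, adjusted p = 0.339, limma). exu, which acts in bcd RNA localisation, read 5.77 and 6.09 in labelled mutant embryos, against 4.41 and 4.95 in control embryos. It had the smallest of the 8 candidate changes, 1.25 (SE 0.32, adjusted p = 0.339, limma). stau, a double-stranded RNA-binding protein that carries bcd and osk RNA and that is also used in neuroblasts, read 11.82 and 11.43 in labelled mutant embryos, against 11.17 and 7.35 in control embryos. The first control array was near the labelled mutant arrays and the second far below them, and stau did not meet the rule.

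Of the germ line genes, aub, a Piwi-family protein of the piRNA pathway, read 9.79 and 9.62 in labelled mutant embryos, against 8.32 and 7.10 in control embryos. It changed by 2.00 (SE 0.50, adjusted p = 0.339, limma), with a gap of more than 1 between its control arrays. gcl, which is required to form pole cells, read 10.92 and 10.93 in labelled mutant embryos, against 10.95 and 11.23 in control embryos, and did not meet the rule. Map205, a microtubule-associated protein that binds the kinase Polo, read 10.72 and 10.42 in labelled mutant embryos, against 6.92 and 4.35 in control embryos. Its change of 4.93 (SE 0.97, adjusted p = 0.339, limma) was the largest of the 10, and its control arrays were also far apart.

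As the control arrays lay apart, each change was also taken against 1 of them alone, where the spread comes only from the labelled mutant arrays and the lone control is assumed to vary like them. Without control replicate 2, Map205 was at 3.64, bcd at 2.44, orb at 1.73 and aub at 1.39, and stau was at 0.45. Without control replicate 1, stau was at 4.27, exu at 0.98 and Map205 at 6.22. Calls are not counted in these fits, as a lone control array has no spread of its own. osk at 3.18 and 3.35, swa at 2.65 and 2.72 and nos at 2.11 and 2.48 hardly depended on which control array was used. With all 4 groups of the experiment in 1 fit, which borrows the spread of the cell arrays, 7 of the 10 had an adjusted p of 0.05 or below (limma), all but aub among the 8 candidates, against 3.83% of all genes.

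Sorted cells of the mutant experiment gave a mixed picture. All labelled mutant arrays lay above all control arrays for 5 of the 10 and below them for 4, where 4.79% and 70.8% of all genes separated in these directions. Candidates were 4 higher, Map205, bcd, orb and swa, and 0 lower, against 2.31% of all genes higher and 20.1% lower. An adjusted p of 0.05 or below (limma) was reached by 6, those 4 and, lower, osk and exu, against 47.2% of all genes. The median change was 0.79 over the 10 and -0.67 over all genes, so most of the array lay lower in labelled mutant cells as deposited.

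Map205 read 8.70 and 8.52 in labelled mutant cells, against 5.53, 5.92 and 5.80 in control cells. Its change was 2.86 (SE 0.16, adjusted p = 0.00664, limma). bcd read 5.40 and 5.92 in labelled mutant cells, against 2.87, 3.29 and 2.82 in control cells. Both groups lay low on the array and apart from each other, and bcd changed by 2.66 (SE 0.24, adjusted p = 0.00811, limma). orb read 6.44 and 6.38 in labelled mutant cells, against 3.54, 4.07 and 3.82 in control cells, a change of 2.60 (SE 0.19, adjusted p = 0.00692, limma). swa read 5.42 and 6.34 in labelled mutant cells, against 4.08, 4.42 and 4.26 in control cells. Its labelled mutant arrays differed from each other by 0.93 and it changed by 1.63 (SE 0.32, adjusted p = 0.0215, limma).

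The other 6 did not meet the rule in cells. aub read 8.10 and 8.14 in labelled mutant cells, against 7.09, 6.03 and 7.49 in control cells, without overlap but with a wide spread among controls. nos read 4.99 and 5.69 in labelled mutant cells, against 4.32, 5.36 and 5.36 in control cells, and the groups overlapped. osk read 3.62 and 3.76 in labelled mutant cells, against 4.02 on all 3 control arrays, values identical as deposited. Thus osk separated in the direction opposite to that in embryos, by a small amount and at the low end of the array. exu read 2.82 and 3.17 in labelled mutant cells, against 3.78, 3.53 and 3.74 in control cells. stau read 10.03 and 10.16 in labelled mutant cells, against 10.17, 10.23 and 10.50 in control cells, and gcl 10.09 and 9.86, against 10.67, 10.63 and 10.27. These 3 also lay lower in labelled mutant cells without overlap.

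Relative to the array median the picture in cells was more uniform. Centred so, 9 of the 10 were higher in labelled mutant cells, 5 were candidates with aub at 1.93 added to Map205 at 3.55, bcd at 3.34, orb at 3.28 and swa at 2.31, and 4 had an adjusted p of 0.05 or below (limma). Of all genes, 5.17% were then candidates higher and 5.45% had such an adjusted p. osk then lay 0.35 higher and exu 0.01 lower, both without passing the test, so that their lower values in cells as deposited hold only on that scale. In bulk RNA, more cells of a type and more RNA per cell cannot be told apart.

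**Figure D2:**
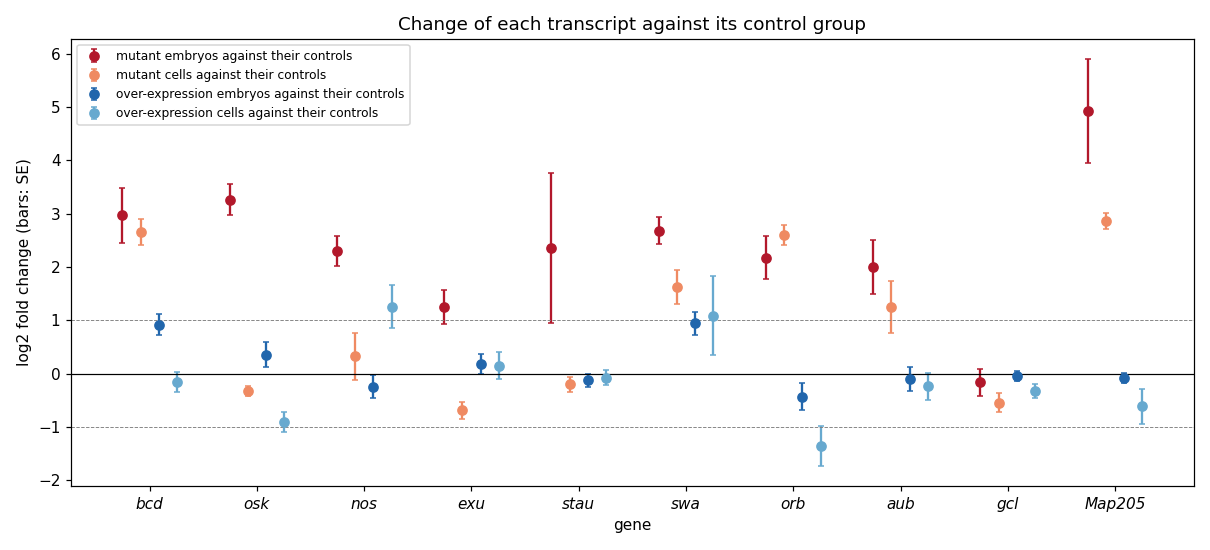
Log2 fold change (y axis) of each transcript (x axis) in the 4 comparisons with a control group, with bars of 1 SE; dashed lines mark an absolute change of 1. Labelled mutant embryos lie above 1 for all but gcl, labelled mutant cells for bcd, swa, orb, aub and Map205, and labelled over-expression embryos for none.

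Whether cells and embryos differed in their change was tested as a contrast over all 4 groups of the experiment. osk, with a difference of cells minus embryos of -3.59 (SE 0.28, adjusted p = 0.0113, limma), and exu, with a difference of -1.94 (SE 0.35, adjusted p = 0.0243, limma), passed, 2 of 10 against 15.4% of all genes. Control cells added no spread to the osk test, as their osk values were identical. The other 8 did not pass. For bcd the difference was -0.31 (SE 0.58) and for orb 0.42 (SE 0.43), whereas for Map205 it was -2.07 with a SE of 0.97. On centred arrays 1 of the 10 passed, against 0.244% of all genes.

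ttk over-expression left most of these transcripts near their controls. In embryos 0 of 10 were candidates in either direction, against 2.48% of all genes higher and 0.639% lower, and 0 had an adjusted p of 0.05 or below (limma), against 0.347% of all genes; 2 of the 10, bcd and swa, had an unadjusted p under 0.05, close to the 17.4% of all genes that did. The median change was -0.06 over the 10 and -0.07 over all genes. These 2 were also the transcripts without overlap between the groups, where 15.4% of all genes lay higher and 23.6% lower without overlap. swa read 10.32, 11.02 and 10.38 in labelled over-expression embryos, against 9.51, 9.54 and 9.85 in control embryos, a change of 0.94 (SE 0.22, adjusted p = 0.164, limma). bcd read 10.01, 10.50 and 10.01 in labelled over-expression embryos, against 9.07, 9.16 and 9.55 in control embryos. Replicate 2, the array that stood apart, was the highest for both, and without it swa changed by 0.72 (SE 0.12) and bcd by 0.75 (SE 0.15). With that array left out, both had an adjusted p below 0.05 (0.0307 and 0.0439, limma), 2 of the 10 against 10.5% of all genes.

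The remaining 8 transcripts overlapped. osk read 6.91, 7.62 and 7.72 in labelled over-expression embryos, against 7.12, 6.93 and 7.13 in control embryos, and nos 7.42, 7.20 and 7.95, against 7.86, 7.57 and 7.89. exu read 5.74, 5.48 and 6.17 in labelled over-expression embryos, against 5.71, 5.52 and 5.64 in control embryos. orb read 7.62, 7.12 and 8.10 in labelled over-expression embryos, against 7.91, 8.06 and 8.16 in control embryos. In each, the labelled over-expression arrays spread over a wider range than the controls. aub read 9.43, 8.76 and 9.40, against 9.15, 9.21 and 9.53 in control embryos. stau read 12.28, 11.92 and 12.27, against 12.26, 12.26 and 12.33, and gcl read 12.07, 12.30 and 12.08, against 12.21, 12.20 and 12.16. Map205 read 11.04, 11.04 and 11.28, against 11.26, 11.15 and 11.20 in control embryos. Map205, stau and gcl had the narrowest ranges over these arrays, 0.25, 0.41 and 0.23 on the log2 scale.

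In sorted cells of the over-expression experiment, 1 of the 10 was a candidate higher and 1 lower, against 1.85% and 0.686% of all genes, and 0 had an adjusted p of 0.05 or below (limma), as did 0% of all genes; 3 of the 10 had an unadjusted p under 0.05, against 11.7% of all genes. The median change was -0.20 over the 10 and 0.01 over all genes. nos read 7.56 and 6.55 in labelled over-expression cells, against 5.62 and 5.97 in control cells, a change of 1.26 (SE 0.40, adjusted p = 0.388, limma). orb read 4.52 and 5.34 in labelled over-expression cells, against 6.02 and 6.55 in control cells, a change of -1.36 (SE 0.37, adjusted p = 0.358, limma). Neither overlapped its controls, and in both the labelled over-expression arrays lay farther apart than the control arrays.

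Of the other transcripts, osk read 4.06 and 4.13 in labelled over-expression cells, against 5.19 and 4.81 in control cells, lower without overlap but by less than 1 as deposited. On centred arrays osk lay 1.002 lower and met the rule, so that 2 of the 10 were candidates lower, against 1.01% of all genes. Map205 read 8.64 and 9.40, against 9.46 and 9.82 in control cells, and gcl read 11.85 and 11.72, against 12.16 and 12.06. Both lay below their controls on each array. swa read 5.59 and 7.44, against 5.89 and 4.97 in control cells, with the labelled over-expression arrays 1.85 apart. bcd read 2.96 and 3.35, against 3.37 and 3.25, aub 7.44 and 6.89, against 7.57 and 7.24, stau 11.27 and 11.05, against 11.23 and 11.24, and exu 5.30 and 4.68, against 4.86 and 4.82. Without overlap were 1 of the 10 higher and 4 lower, where 22.6% and 23.4% of all genes separated in these directions. The contrast of cells with embryos passed for 0 of the 10, against 0.071% of all genes; 3 of the 10 had an unadjusted p under 0.05 (limma), against 10.2% of all genes.

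Set against whole embryos of the same genotype, sorted cells read lower for most of these transcripts. Cells lay lower, as candidates, for 9 of 10 in the labelled mutant against 61.1% of all genes, for 5 in its control against 14.3%, for 6 in the labelled over-expression against 27.1%, and for 8 in its control against 34%. At an adjusted p of 0.05 or below (limma) the counts were 10 of 10 against 80.8% of all genes, 3 against 2.02%, 7 against 38.6%, and 9 against 78.5%, in the same order. The median change over all genes was -1.25, -0.38, -0.56 and -0.62 in that order, and over the 10 it was -2.45, -1.27, -2.07 and -1.83. The share of the array that lay lower in cells was thus itself large.

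**Figure D3:**
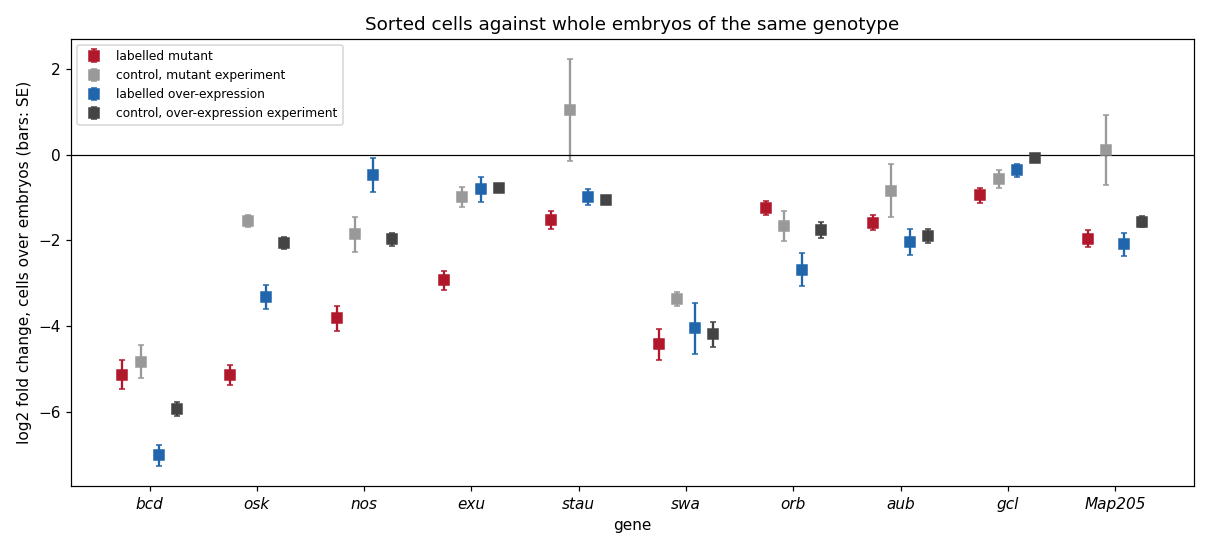
Log2 fold change of sorted cells over whole embryos (y axis) for each transcript (x axis), in each of the 4 genotypes, with bars of 1 SE. bcd and swa lie below -3 in all 4, and gcl lies nearest to 0 in all but the control of the mutant experiment.

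bcd differed by -5.14 (SE 0.34) in the labelled mutant, -4.83 (SE 0.39) in its control, -7.02 (SE 0.24) in the labelled over-expression and -5.95 (SE 0.16) in its control. Its cell values lay at the low end of the array, between the 1.6th and 5.9th percentile in the over-expression experiment and between the 11th and 18.9th in control cells of the mutant experiment. Whether they lie above background was not checked here, so the sizes are given as fitted. In the labelled mutant osk differed by -5.15 (SE 0.23). swa differed by -4.42, -3.37, -4.06 and -4.20 in the same order of genotypes, and osk in the other 3 by -1.55, -3.32 and -2.05. nos differed by -3.82 in the labelled mutant, -1.85 in its control and -1.98 in the control of the over-expression experiment, and was no candidate in the labelled over-expression, where its cell arrays were high. orb differed by -1.24, -1.67, -2.68 and -1.76. The adjusted p values of these candidates lay between 2.09e-05 and 0.0874 (limma), and nos and orb in the control of the mutant experiment were the only ones of them above 0.05.

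The rest were lower by less or in fewer genotypes. aub differed by -1.59 in the labelled mutant, -2.04 in the labelled over-expression and -1.89 in the control of that experiment. Map205 differed by -1.96, -2.10 and -1.56 in those 3. exu met the rule only in the labelled mutant, at -2.94, and stau there at -1.53 and in the over-expression control at -1.05. gcl met it in none. After centring, orb in the labelled mutant and stau in the over-expression control were no longer lower in cells, at 0.19 and 0.0017, and candidates numbered 5, 5, 6 and 3, against 9, 5, 6 and 8 as deposited. Of all genes, 10.9%, 4.36%, 7.23% and 9% were then candidates lower in cells, in the same order of genotypes.

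Across all 8 groups the levels relative to the array median placed labelled mutant embryos highest for 8 of the 10 transcripts. bcd stood 3.16 ± 0.59 (SD, n = 2) above the median there, next 0.92 ± 0.28 (n = 3) in labelled over-expression embryos, then 0.39 ± 0.76 and 0.03 ± 0.24 in the control embryos of the mutant and over-expression experiments, which overlapped each other. Labelled mutant cells followed at -0.55 ± 0.41 and the other cells between -3.89 and -5.11. osk had the same order of embryo groups, 1.20 ± 0.25 in labelled mutant embryos and between -1.83 and -2.17 in the other 3, and swa stood at 2.67 ± 0.28 in labelled mutant embryos and at 1.32 ± 0.38 in labelled over-expression embryos, with no overlap between these neighbours. nos was highest in labelled mutant embryos at 1.52 ± 0.11, and its other 7 groups formed a run from -0.57 to -2.38 in which each neighbour overlapped the next. exu ran likewise, -1.71 ± 0.16 in labelled mutant embryos and then -2.76 ± 0.37 in their controls, with the remaining 6 groups between -3.20 and -3.60, each overlapping the next.

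For 4 transcripts the labelled mutant cells lay beside the labelled mutant embryos at the top. aub was at 2.07 ± 0.19 in labelled mutant embryos and 1.91 ± 0.07 in labelled mutant cells, which overlapped, with the other groups at 0.27 or below. orb was highest in labelled mutant cells, at 0.20, ahead of labelled mutant embryos at 0.01 ± 0.11, with no other group above -1.18. Map205 was at 2.93 ± 0.28 in labelled mutant embryos and 2.41 ± 0.08 in labelled mutant cells. The 4 groups of the over-expression experiment followed, between 1.98 and 0.76. The control cells and control embryos of the mutant experiment were lowest, at -1.14 ± 0.14 and -1.80 ± 1.83. For Map205 the widest step in this order, 1.89, lay just above those controls, and no test was made across experiments. stau was at 3.98 ± 0.35 and 3.89 ± 0.14 in labelled mutant embryos and cells, which overlapped, and was above 2.8 in all groups but the control embryos of the mutant experiment. gcl varied least between groups, from 3.93 ± 0.05 in control cells of the over-expression experiment to 2.90 ± 0.13 in labelled over-expression embryos. On values as deposited, which set apart the 2 experiments by their array medians, labelled mutant embryos were highest for 5 of the 10.

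**Figure D4:**
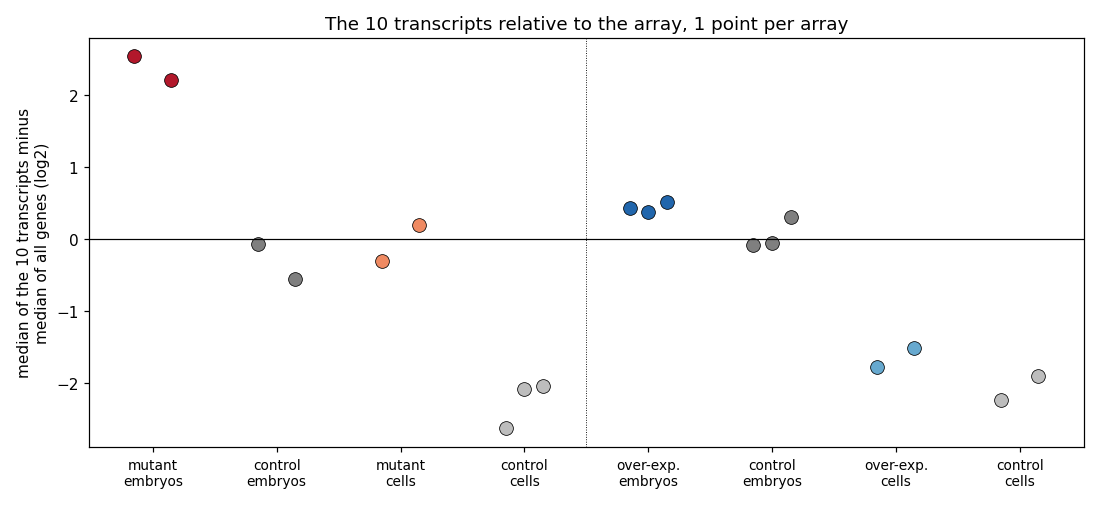
Median of the 10 transcripts minus the median of all genes on the same array (log2, y axis), 1 point for each of the 19 arrays, by group (x axis). The labelled mutant embryo arrays, at 2.54 and 2.20, lie above all others, and labelled mutant cells, at -0.31 and 0.19, lie above the other cell arrays.

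As a set, the median of the 10 relative to the array median was 2.54 and 2.20 on labelled mutant embryo arrays, against -0.08 and -0.55 on their controls. It was 0.43, 0.37 and 0.51 in labelled over-expression embryos, against -0.09, -0.06 and 0.31 in theirs. In cells it was -0.31 and 0.19 in the labelled mutant, against -2.63, -2.08 and -2.05 in its control, and -1.79 and -1.52 in the labelled over-expression, against -2.23 and -1.90 in its control. In each of these 4 pairs the arrays did not overlap. In the over-expression experiment this was not a rise of most of the transcripts. There 4 of the 10 changed upward in embryos and 3 in cells, with a median change of -0.06 and -0.20. How often other sets of genes separate in this way was not tested.

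The transcripts did not all vary together. The correlation of each with the mean of the other 9 over the 19 arrays, on centred values, was 0.86 for osk, 0.83 for orb, 0.82 for bcd, 0.81 for swa, 0.78 for aub and 0.73 for nos, but 0.53 for exu, 0.53 for Map205, 0.32 for stau and -0.44 for gcl. Over the 10 embryo arrays alone it was between 0.80 and 0.92 for bcd, osk, nos, swa, aub and orb, and -0.02 for gcl. These are descriptions, as the arrays share groups, experiments and array-wide shifts. Outside the 10, the genes whose centred profile was most like their mean were FBgn0035959 and FBgn0003733, with r of 0.98 each over 19 arrays.

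Other genes of oocyte and germ line function were taken from 4 gene lists that the study itself drew from genes changed in mutant embryos, so their direction there is no independent evidence. After removal of the 6 transcripts that are on those lists, 17 genes were measured. In labelled mutant embryos 16 of the 17 were candidates, all higher, with a median change of 2.40, and in labelled mutant cells 1 was a candidate, higher, with a median of 0.00 as deposited and 0.68 on centred arrays. In labelled over-expression embryos 1 of 17 was a candidate, higher, with a median of 0.42, and in labelled over-expression cells 3 were, higher, with a median of 0.40. Of all genes, 8.44%, 2.31%, 2.48% and 1.85% were candidates higher in these comparisons, in the order given. In cells against embryos, 13 of the 17 in the labelled over-expression and 12 in its control were candidates, all lower, beside the 27.1% and 34% of all genes given above; the mutant experiment is left out there, as its embryos chose the lists.

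Markers of the sort and of other cells were read beside these results. In labelled mutant embryos 0 of 4 trachea and midline markers (trh, btl, dys, sim) and 0 of 4 markers of mesoderm, muscle, blood and fat body (twi, Mef2, srp, Adp) were candidates, with changes between 0.17 and 0.91. In labelled mutant cells dys at -1.42 and srp, a factor of blood and fat body, at -1.17 were candidates, both lower, 2 of the 8 markers beside 20.1% of all genes, and on centred arrays neither was, at -0.74 and -0.48. Relative to the array median, the mean of the trachea and midline markers lay between 0.81 and 1.08 on labelled mutant cell arrays and between 0.04 and 1.66 on their controls. In embryos it lay between -0.30 and -0.01 in the labelled mutant, below its cells. In control embryos it lay between -1.14 and 0.06, which overlapped the control cells. The mean of the other markers lay between 0.75 and 1.08 on labelled mutant cell arrays and between 0.62 and 1.44 on their controls. For cells of the over-expression experiment the mean of the trachea and midline markers lay between 1.07 and 1.92 in the labelled over-expression and at 2.08 on both control arrays, above the embryos of each, which reached -0.09 and 0.04. The part of cell make-up and of embryo age in the changes of the 10 transcripts was not tested.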

How the data were processed

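RNA of whole embryos and of 100000 sorted cells per sample was hybridised to 1-colour Affymetrix arrays. The authors used an ENSEMBL-based chip definition, with RMA named in the submitters' processing notes, and deposited 1 value per gene and array, read as log2 from its range; an early normalization between groups was avoided, by the study's own account, and scanner files were not used here. Of 12861 rows, 182 control features were left out and 12679 genes were tested, with no filter on low values. Samples were grouped by their titles. The precision is limited by the number of arrays, 2 or 3 per group, at which an exact permutation test cannot reach a p of 0.05, so none was made.

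limma 3.58.1 in R 4.3.3 was fitted for each of 8 comparisons to the arrays of its 2 groups, with default empirical Bayes moderation, two-sided tests and Benjamini-Hochberg adjustment over all genes. Candidates follow the study's rule, a log2 change of at least 1 in either direction with an unadjusted p not over 0.05. The difference between cells and embryos was a contrast over all 4 groups of an experiment. The script was tested on simulated data. Alternatives were median-centred arrays, quantile normalization, a 25th-percentile filter, all 4 groups in 1 fit, a threshold on the adjusted p, moderation with an intensity trend, blocks by replicate number, and leaving out each array. Crossed replicate numbers were added after the data were seen.

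All 10 transcripts are named with values on each array. Fold changes with errors are given for those that met the rule or, where none did, for the largest change, and elsewhere without error where a statement turns on another scale or a left-out array. The transcripts, markers and lists were chosen with earlier results of these data known. Lists kept as gene symbols could not be used, as the gene table held pairs 105 FlyBase numbers with a symbol and 0 of the 10; names of the 10 follow their FlyBase numbers. Of the genes most like the 10, at most 2 numbers are printed, as no table names them. The deposited table has no comparison columns.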

Additional observations from a re-analysis of the deposited data

Results flagged for a closer look

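The change of 3 transcripts in cells of the mutant experiment differed in direction from that in embryos. Of all genes, 39.5% lay higher in labelled mutant embryos and 70.8% lower in labelled mutant cells without overlap. The share that did both was not counted. The change in cells minus the change in embryos had a median of -0.87 over all genes, and 15.4% of them passed the test. osk was higher on all labelled mutant embryo arrays than on their controls and lower on all labelled mutant cell arrays than on theirs, and the change in cells minus the change in embryos was -3.59 (adjusted p = 0.0113, limma). The osk values of control cells were identical, so they added no spread to that test. exu separated the same ways, with a difference of -1.94 (adjusted p = 0.0243, limma). stau did too, with a difference of -2.57 that did not pass the test (adjusted p = 0.203, limma) and that rests on a control embryo pair 3.81 apart. On centred arrays the lower values of osk in labelled mutant cells turned to 0.35 higher and those of exu came to -0.01, so that the opposite direction holds only for values as deposited.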

How the results depend on the processing

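Counts of called transcripts among the 10 stayed within 1.5 times their value in 50 of 57 alternatives other than a left-out array. Counts of differences between cells and embryos did so in 4 of 6. At an adjusted p of 0.05 (limma) the counts were 0 in labelled mutant embryos (8 by the rule), 0 in labelled over-expression cells (2 by the rule) and 3 in control cells against control embryos of the mutant experiment (5 by the rule). Centring and quantile normalization each gave 5 in labelled mutant cells against embryos (9 as deposited) and 3 in control cells against embryos of the over-expression experiment (8 as deposited). Both also left 1 transcript with a difference between cells and embryos in the mutant experiment, against 2. Labelled mutant embryos were highest for 5 transcripts as deposited and for 8 by percentile on the array or relative to its median. Centring turned orb in labelled mutant cells against embryos to 0.19, quantile normalization to 0.20, and centring turned stau in control cells against embryos of the over-expression experiment to 0.0017.

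In labelled mutant embryos, leaving out 1 array leaves 1 in a group, so only changes are given. They lay between 0.98 and 1.52 for exu and between 3.64 and 6.22 for Map205. Fewer transcripts, and fewer of all genes, were candidates when a labelled mutant array was left out. The share of all genes called moved with the array left out, so the range of that share is given with each count. Leaving out 1 array was also tried on the number of candidates in the other comparisons. Candidates were counted only where at least 2 arrays stayed in each group. Labelled mutant cells kept 4 to 5, all higher, against 2.04% to 2.4% of all genes. Labelled over-expression embryos had 0 to 2, all higher, against 1.6% to 4.19%. In labelled over-expression cells, where 1 array was left in a group, nos changed by 0.75 to 1.76 and orb by -1.77 to -0.95. In cells against embryos, candidates lower in cells numbered 5 to 6 in the control of the mutant experiment, against 9.54% to 14% of all genes. They numbered 6 to 7 in the labelled over-expression, against 23.9% to 30.8%, and 8 in its control, against 33.7% to 34.3%. In the labelled mutant each left-out array left 1 in a group, so candidates were not counted. With a control cell array of the mutant experiment left out, the difference between cells and embryos passed for 0 to 2 transcripts, against 0% to 8.83% of all genes. With an embryo array of the over-expression experiment left out it passed for 0, against 0% to 0.71%.

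Replicate numbers are not stated to pair samples, and same-numbered arrays did not deviate together in every pair. With the replicate number as a block, candidates numbered 8 in labelled mutant embryos, 5 in labelled mutant cells, 0 in labelled over-expression embryos and 2 in labelled over-expression cells, and 9, 6, 6 and 8 in the 4 comparisons of cells with embryos in the order above. Of all genes, 11.1%, 2.35%, 3.08% and 2.14% were then candidates higher against controls, in the same order. In cells against embryos, 61%, 16.3%, 23.8% and 33.9% were candidates lower. Under that block 0 of the 10 kept an adjusted p of 0.05 or below (limma) in labelled mutant cells, against 6 without it, 0 in control cells against embryos of the mutant experiment, against 3, and 0 in labelled over-expression cells against embryos, against 7. Of all genes 0% then passed in each of these 3. The crossed replicate block in labelled mutant cells against embryos, where same-numbered arrays had a correlation of -0.27, gave 9, all lower, against 62% of all genes. The cause of these changes was not tested.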
